A study of Mus musculus with 3 samples.

Results

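Lymphatic endothelium of the mouse ovary was described from the cells that the authors' deposited annotation names as lymphatic endothelial cells, which were 100 of the 14353 cells of the study. The cells came from ovaries of C57BL/6 female mice in 3 conditions. The metformin condition held aged mice that drank metformin, a drug used against type 2 diabetes, at 350 mg/kg/day for 6 months from 14 months of age. The aged condition held untreated aged mice, and the age of its mice is not stated for its cells. The young condition held mice of 3 months. Left ovaries of 3 mice of a condition were dissociated together, the suspension passed a 40 µm strainer and the cells were flow sorted, by a gate that is not named. Single-cell 3′ libraries were made in 3 pools, called A, B and C, and each cell carried a DNA tag that gave its condition. The labels do not say how the cells of a condition were divided over the pools, so whether the pools hold different mice is not known. Each condition was taken as 1 sample and its pools as technical repeats, and no test between conditions was run. All intervals below are exact 95% intervals that cover counting error only.

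Lymphatic vessels take up tissue fluid and leukocytes and return them to the blood. Their endothelium is set apart from that of blood vessels by the transcription factor Prox1 and grows in response to VEGF-C, the ligand of the receptor Flt4. Blind-ended capillaries carry the hyaluronan receptor Lyve1 and draw dendritic cells and T cells through the chemokine Ccl21, whose receptor is Ccr7, while deeper collecting vessels have valves. In the ovary, lymphatic vessels lie around growing follicles and corpora lutea and in the medulla.

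The lymphatic class held 16 metformin cells with 78613 UMIs (unique molecular identifiers, each standing for 1 captured mRNA molecule), 29 aged cells with 120010 UMIs and 55 young cells with 231255 UMIs. The median depth was 3619 UMIs per cell in the metformin condition, 3746 in the aged and 3856 in the young condition. Depth within the class thus differed little, while over all cells of the study the medians were 2752 UMIs in metformin, 3034 in aged and 5277.5 in young ovaries. Across the study 26 cell barcode sequences occurred in more than 1 pool, and none of them belonged to a lymphatic cell. One metformin cell of pool A stood apart with 23781 UMIs, which was 30.3% of all metformin UMIs of the class. The deepest aged cell held 7.76% and the deepest young cell 8.39% of their condition, so the metformin ratios the text turns on are also given without the deepest cell of each condition.

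The annotation matched its markers, which describes the class and does not test it, since the annotation was made from the same expression values. Every one of the 100 lymphatic cells had a UMI of Lyve1, Prox1 or Mmrn1, and 68 cells had all 3. Among the 14253 other cells, 157 had a UMI of 1 of these genes, 4 had 2 of them and 0 had all 3. Mmrn1, which codes for the secreted glycoprotein multimerin 1, was found in 100 of the 100 cells, Prox1 in 86 and Lyve1 in 76. Among the 428 vascular endothelial cells, at a median depth of 4198.5 UMIs, against 3728 UMIs in lymphatic cells, 19 had a Prox1 UMI and 0 had a UMI of Lyve1 or Mmrn1. With each cell thinned to 1000 UMIs, Mmrn1 was detected in 88 of 96 cells, Lyve1 in 60 and Prox1 in 58, so the share of cells with a UMI of Lyve1 or Prox1 depended on depth. The pan-leukocyte gene Ptprc had 2 UMIs in the whole class and the pericyte gene Rgs5 had 0. Lists of markers for T cells, red cells, adipocytes, oocytes and glia had 0 UMIs. Some other lists were present in most cells. The granulosa list had 273 UMIs in 83 of the 100 cells, 238 of them from the gap junction gene Gja1, and summed to 635 CPM, that is UMIs scaled to the summed UMIs of the class, against 207 CPM in vascular endothelium. The macrophage and monocyte list had 185 UMIs in 76 cells, 152 of them from the mannose receptor Mrc1, and the surface epithelium list 150 UMIs in 69 cells, 143 of them from Gpm6a. The blood endothelium list had 825 UMIs in 93 cells, or 1919 CPM, against 6347 CPM in vascular endothelium.

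The genes that lead the class are given as CPM, and since the annotation was made from the same expression values they are a description and not a test. Ccl21a reached 15081 CPM, 1197-fold above the next class, follicular granulosa cells, at 12.6 CPM. Ccl21a (chromosome 4, 42772860 to 42773993, minus strand, GRCm38) has near-identical gene copies, so its count may be shared between them. Mmrn1 (chromosome 6, 60924976 to 60989378, plus strand) reached 2833 CPM and was 652-fold above the next class. Lyve1 (chromosome 7, 110850607 to 110863239, minus strand) reached 1635 CPM and was 478-fold above the next class. Prox1 (chromosome 1, 190118035 to 190170714, minus strand) had 744 CPM, against 11.2 CPM in vascular endothelium. Flt4, the VEGF-C receptor also called VEGFR3, had 863 CPM in lymphatic and 61.9 CPM in vascular endothelium, which is 14.0-fold. Nrp2, the neuropilin that acts with Flt4 as a co-receptor, had 947 CPM in lymphatic and 178.5 CPM in vascular endothelium.

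Other leading genes fell into a few roles. The water channel Aqp1 had 1366 CPM in lymphatic and 35.6 CPM in vascular endothelium, and the caveolar coat gene Cavin2 had 1198 CPM in lymphatic and 284 CPM in vascular endothelium. Among the leading genes that code for secreted proteins were the glycoprotein reelin (Reln, 779 CPM), the pattern recognition protein pentraxin 3 (Ptx3, 533 CPM), coagulation factor VIII (F8, 554 CPM), the copper carrier ceruloplasmin (Cp, 521 CPM) and the lipopolysaccharide-binding protein Lbp (365 CPM). Gm525, a gene model with no given name, had 609 CPM in lymphatic endothelium and at most 2.34 CPM in any other class. Next came the polarity gene Pard6g with 554 CPM and the voltage-gated sodium channel subunit Scn3a with 314 CPM. The TGF-beta receptor Tgfbr2 (642 CPM) and the BMP signal relay Smad1 (726 CPM) were also among the 25 leading genes, as was the homeobox gene Meox1 (256 CPM).

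**Figure D1:**
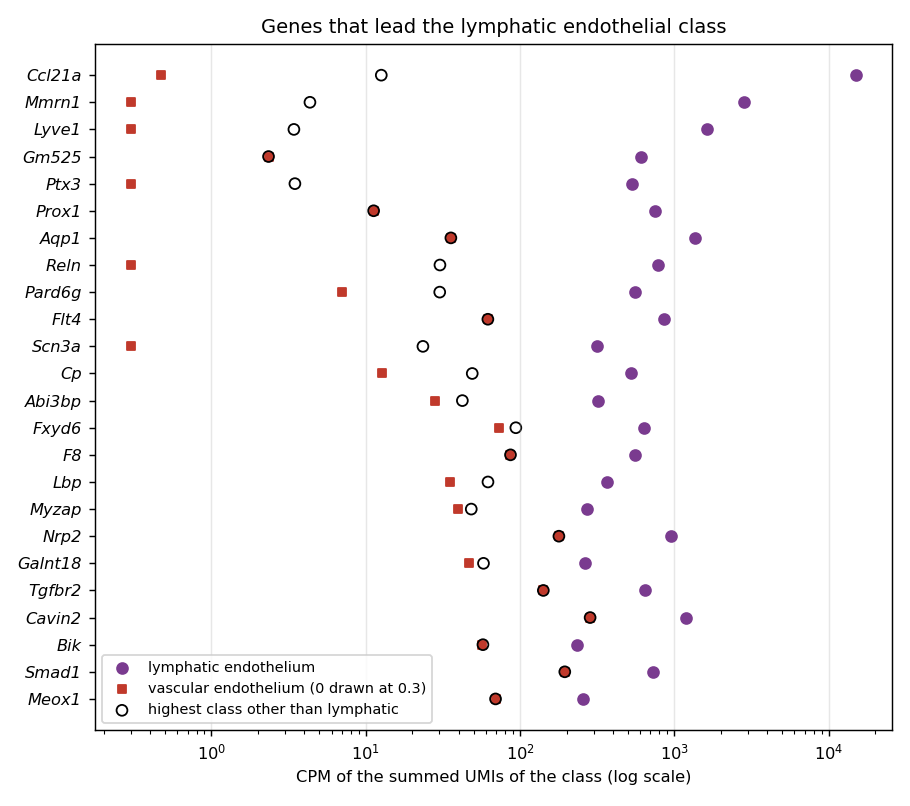
Summed expression of 24 of the 25 leading genes in lymphatic endothelium, in vascular endothelium and in the highest other class, in CPM on a log axis with a value of 0 drawn at 0.3. Ccl21a, Mmrn1 and Lyve1 stand furthest from every other class, while Cavin2 and Nrp2 are shared with vascular endothelium at a lower level.

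Promoter sequences are shown for 3 leading genes, to let a reader see where short motifs of factors with known roles in endothelium occur. Of the 25 leading genes, 16 had a promoter in the RefSeq table of GRCm38.p6, and the 250 bases before each start were searched on both strands; Lyve1 was not among the 16. The SOX motif AACAAT (reverse ATTGTT) was in 4 of the 16 windows, or 25%, against 9.42% of all 32851 promoters of the same length. The forkhead motif GTAAACA (reverse TGTTTAC) was in 6.25% of the 16, against 3.17% of all promoters. The ETS motif CCGGAA (reverse TTCCGG) was in 6.25% of the 16, against 12% of all, and the GATA motif AGATAA (reverse TTATCT) in 0 of the 16, against 9.99% of all. With 16 windows these shares describe the letters and no site. Each sequence runs 5′ to 3′ on the gene's strand up to the base before the RefSeq start, and no window overlaps an annotated exon. The Mmrn1 window lies inside the span given above, since the RefSeq start is downstream of the first annotated one. The capitals mark the SOX match in Mmrn1 (chr6:60944067-60944316, plus strand), the SOX and then the forkhead match in Gm525 (chr11:89073591-89073840, plus strand) and the ETS match in Reln (chr5:22344706-22344955, minus strand).
Mmrn1: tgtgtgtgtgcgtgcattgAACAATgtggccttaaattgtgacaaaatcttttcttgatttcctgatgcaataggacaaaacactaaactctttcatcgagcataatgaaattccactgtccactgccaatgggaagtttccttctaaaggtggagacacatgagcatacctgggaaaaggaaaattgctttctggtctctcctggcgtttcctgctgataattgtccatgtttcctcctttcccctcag
Gm525: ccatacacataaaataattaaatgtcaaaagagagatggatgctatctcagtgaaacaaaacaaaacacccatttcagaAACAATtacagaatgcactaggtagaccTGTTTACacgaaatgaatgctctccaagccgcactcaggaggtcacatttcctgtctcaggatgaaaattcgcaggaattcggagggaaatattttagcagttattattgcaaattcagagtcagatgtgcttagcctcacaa
Reln: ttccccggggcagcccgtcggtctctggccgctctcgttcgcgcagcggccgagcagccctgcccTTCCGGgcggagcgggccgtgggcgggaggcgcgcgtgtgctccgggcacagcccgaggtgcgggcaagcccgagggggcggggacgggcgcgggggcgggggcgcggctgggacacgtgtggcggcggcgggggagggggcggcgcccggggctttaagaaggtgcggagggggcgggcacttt

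Levels varied widely from cell to cell. Ccl21a ranged up to 50290 CPM per cell with a median of 15975 CPM, and 3 of the 100 cells had no UMI of it. Mmrn1 was the steadiest of the markers, with a median of 3082 CPM and a range of 505 to 7776 CPM. Lyve1 had a median of 1396 CPM and reached 8673 CPM, and Reln had a median of 682 CPM and reached 5197 CPM. Clustering of the class gave 3 sub-clusters of 44, 51 and 5 cells, none of which rested on enough fixed markers to be named. Their defining genes are a description, since they come from the clustered values. In the cluster of 44 cells the antiviral genes Rsad2 and Ifit1 ranked high, but Rsad2 had its 49 UMIs in 2 cells and Ifit1 its 47 UMIs in 4 cells. Genes found in more of its cells were the ubiquitin-like Isg15, with 461 CPM in it and 89.0 CPM in the other lymphatic cells, and Klf2. Klf2, a flow-induced transcription factor, had 2782 CPM in it and 902 CPM in the other lymphatic cells, Apold1 525 against 92.9 CPM and Tm4sf1 1155 against 356 CPM. The cluster of 51 cells was led by genes such as the actin-binding Pfn1, with 1304 against 557 CPM, and Ptx3, with 726 against 337 CPM. It holds the deepest metformin cell, which gave 84 of its 282 UMIs of Pfn1. That cell also gave 67 of 196 UMIs of H2afz and 41 of 137 of Ran, 2 other leading genes of this cluster. The 5 cells had a median of 8520 UMIs and carried stromal and steroidogenic transcripts, among them Dcn, Mgp and 140 UMIs of Cyp11a1 in 1 cell. The sub-clusters held 7, 8 and 1 metformin cells, 12, 15 and 2 aged cells, and 25, 28 and 2 young cells. Their make-up by pool differed, with 23, 16 and 3 cells of pool A and 13, 29 and 0 of pool B. Valve genes were sparse: Foxc2, a transcription factor needed for valves, had 9 UMIs in the class, Cldn11 had 5, Gata2 had 10 and the valve integrin Itga9 had 39.

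The partners of these vessels were measured in the other classes. Vegfc, the growth factor for Flt4, had 0 UMIs in lymphatic cells and was highest in vascular endothelium, at 67.9 CPM with a UMI in 18.7% of cells, followed by fibroblasts at 30.6 CPM. Ccbe1, a secreted protein needed for VEGF-C processing, was highest in luteinized granulosa cells at 29.9 CPM and follicular granulosa cells at 27.7 CPM. Ccr7, the receptor for Ccl21, had 699 CPM and was found in 61.9% of cells of the class B cell I, and had 168 CPM in Dendritic cell I and 155 CPM in T cell/ILC.

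The abundance of lymphatic cells was compared first. Lymphatic cells were 0.426% of all metformin cells (16 of 3754, interval 0.244 to 0.691%), 0.973% of aged cells (29 of 2979, 0.653 to 1.40%) and 0.722% of young cells (55 of 7620, 0.544 to 0.938%). The aged share was 1.35 times the young share, with an interval of 0.829 to 2.15 that includes 1. By pool that ratio was 2.04 in A, 0.949 in B and 0.645 in C, so its direction was not shared, and it was 0.923 without pool A. The metformin share was 0.438 times the aged share (0.222 to 0.833). By pool it was 0.440 in A and 0.364 in B, with intervals that include 1, and 1.15 in C, which held 4 metformin and 2 aged lymphatic cells.

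Within endothelium, the lymphatic fraction was 16.2% of metformin endothelial cells (16 of 99, 9.53 to 24.9%), 29.6% of aged (29 of 98, 20.8 to 39.7%) and 16.6% of young ones (55 of 331, 12.8 to 21.1%). The odds ratio was 2.10 for aged over young (1.20 to 3.65) and 0.460 for metformin over aged (0.215 to 0.959). Pool A weighed most, since 17 of its 34 aged endothelial cells were lymphatic, against 8 of 39 metformin and 17 of 106 young ones. Aged over young by pool, it was 5.16 in A, 1.25 in B and 0.741 in C, and it was 1.14 without pool A. For metformin over aged it was 0.263 in A, 0.557 in B and 1.47 in C, and 0.669 without pool A. In the same comparison vascular cells were a smaller share of all cells, at 2.32% of aged and 3.62% of young cells, a ratio of 0.639 (0.484 to 0.835). Loss in dissociation or sorting and number in the tissue cannot be told apart in these shares.

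**Figure D2:**
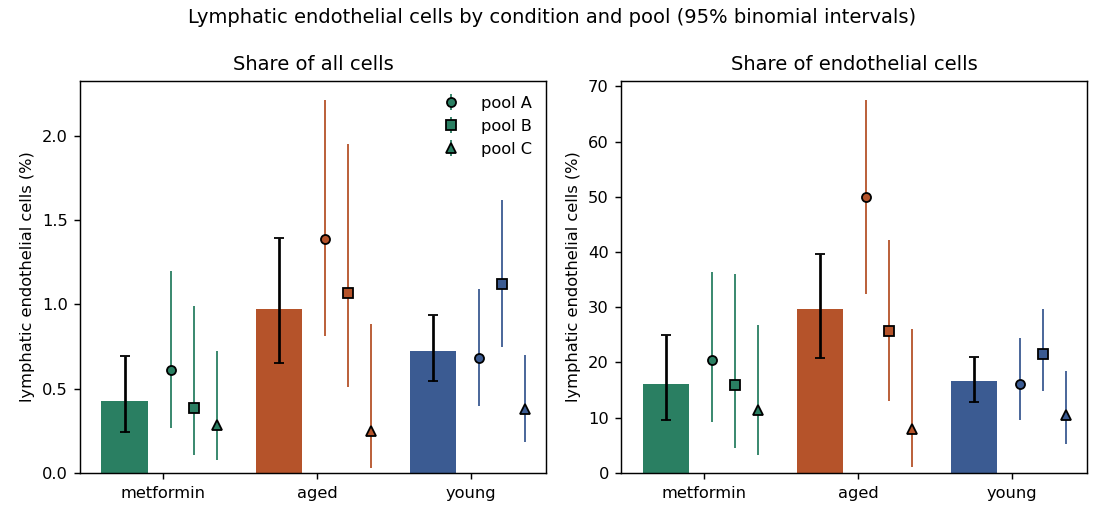
Lymphatic cells as a percent of all cells (left) and of endothelial cells (right) in metformin, aged and young ovaries, with bars for the condition, lines for exact 95% binomial intervals and symbols for pools A, B and C. The aged bar is highest in both panels at 0.973% and 29.6%, and its pool A symbol stands at 50% of endothelial cells.

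Lymphatic identity genes had close summed levels in aged and young cells. Of the 25 genes of the lymphatic identity list, 22 had at least 20 UMIs over the aged and young cells. None of the 22 was 1.5-fold or more higher in aged cells, and 2 were lower. Over all 3332 genes with that many UMIs, 12% were higher and 10.8% lower by this measure, and 50.7% had a higher and 49.3% a lower value of any size. The median log2 ratio of the list was 0.06, against 0.01 over all genes. Prox1 had 775 CPM in aged and 787 CPM in young cells, a log2 ratio of -0.02 (-0.40 to 0.35). Lyve1 had 1642 CPM in aged and 1773 CPM in young cells (-0.11, -0.36 to 0.14), and Mmrn1 had 3208 CPM in aged and 2897 CPM in young cells (0.15, -0.04 to 0.33). The intervals of these markers include 0 and leave room for a log2 ratio of at most 0.40 in size. Ccl21a was slightly higher, with 16507 CPM in aged cells, against 14754 CPM in young cells (0.16, 0.08 to 0.24).

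The 2 identity genes that were lower are surface proteins. Podoplanin (Pdpn), a mucin-type glycoprotein that binds the platelet receptor CLEC-2, had 15 UMIs or 125 CPM in aged and 55 UMIs or 238 CPM in young cells, a log2 ratio of -0.93 (-1.86 to -0.08). It was found in 9 of 29 aged and 30 of 55 young cells. By pool, Pdpn was at 156, 58.7 and 108 CPM in aged cells and at 196, 316 and 178 CPM in young cells of A, B and C, so every aged pool lay below every young one, the aged value of pool C resting on 1 UMI. The neuronal glycoprotein Gpm6a had 233 CPM in aged and 389 CPM in young cells (-0.74, -1.41 to -0.11).

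**Figure D3:**
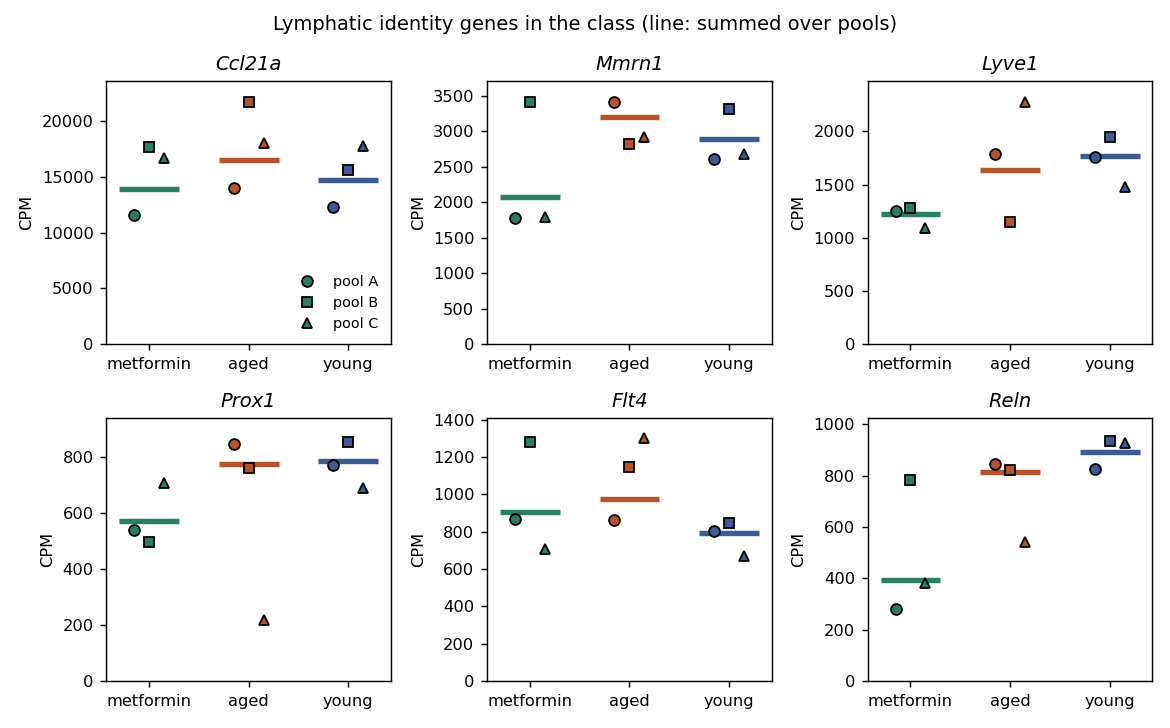
Expression of Ccl21a, Mmrn1, Lyve1, Prox1, Flt4 and Reln in lymphatic cells of metformin, aged and young ovaries, in CPM, with a line for the summed cells and symbols for pools A, B and C. Aged and young lines lie close for Prox1 (775 and 787 CPM), and the Reln line is lowest in metformin at 394 CPM.

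Receptors and partners of the VEGF-C pathway were also close, apart from 1 gene each way. Of 14 genes counted, 1 was higher and 1 lower by 1.5-fold in aged cells, with a median of 0.10. Flt4 had 974.9 CPM in aged and 791 CPM in young cells (0.30, -0.05 to 0.64), and Nrp2 had 1042 CPM in aged and 813 CPM in young cells (0.36, 0.02 to 0.69). The gene that was lower was Calcrl, the receptor of the lymphatic growth peptide adrenomedullin, with 150.0 CPM in aged and 277 CPM in young cells (-0.88, -1.73 to -0.11). The gene that was higher was the ephrin Efnb2, at 0.85 with an interval that includes 0. Among 14 genes of leukocyte and antigen traffic the median was 0.10, and 2 were higher and 1 lower. The monocyte chemokine Ccl2 was the lower one, with 5 UMIs in 1 aged cell and 52 UMIs in 6 young cells, 65.4% of them in 1 cell. The alarmin Il33 and the neutrophil chemokine Cxcl1 were the higher ones, at 0.64 and 0.85 with intervals that include 0. Of 13 junction genes none was higher and 1, Emcn, was lower. Of 15 genes of class I antigen presentation none passed 1.5-fold either way, with a median of -0.04.

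Some basement membrane genes, led by collagen IV, were lower in aged lymphatic cells. Of 16 genes counted, 12 had a lower value in aged cells, 4 were lower and 1 was higher by 1.5-fold, and the median was -0.26. By pool the median was -0.35 in A, -0.08 in B and 0.40 in C. The value of pool C, with 2 aged cells, is raised for sparse genes by the 1 UMI added to each count. Col4a1, which codes for the alpha 1 chain of the collagen IV network under endothelium, had 21 UMIs or 175 CPM in aged cells and 133 UMIs or 575 CPM in young cells. Its log2 ratio was -1.72 (-2.46 to -1.05). By pool, Col4a1 had 195, 147 and 108 CPM in aged cells and 903, 440 and 217 CPM in young cells of A, B and C. Every aged pool lay below every young pool, the aged value of pool C resting on 1 UMI. Col4a1 was found in 10 of 29 aged and 35 of 55 young cells, and 1 young cell held 36.8% of the young UMIs. The partner chain Col4a2 had 9 UMIs in aged and 49 UMIs in young cells (-1.50, -2.71 to -0.46). Both genes lie head to head on chromosome 8 (GRCm38), Col4a1 starting at 11312826 on the minus strand and Col4a2 starting at 11312805 on the plus strand. The laminin chain Lamc1 (-1.14) and the collagen-binding protein Sparc (-0.91, -1.41 to -0.43) were the other lower genes, and Sparc was not lower in pool B, where its value was 0.34. The higher gene was the fibulin Fbln2, at 0.62 with an interval that includes 0. In vascular endothelium the list's median was 0.09, and Col4a1 had a ratio of -0.38 (-0.54 to -0.21), Col4a2 of -0.54 and Sparc of -1.18. The median over all 8042 genes of the vascular class was 0.16.

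Fibrillar collagen and matrix genes went the other way, on few cells. Of 8 genes counted 4 were higher and none lower in aged cells, with a median of 0.64. They were Ogn, Col1a2, Dcn and Bgn, which fibroblasts express at a high level. One aged cell held 85 of the 123 aged UMIs of the stromal fibroblast marker list, which summed to 445 CPM in metformin, 1025 CPM in aged and 363 CPM in young cells. Without the deepest cell of each condition the list's median was 0.02 and the ratio of Dcn turned to -0.54.

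Several interferon response genes were lower in aged lymphatic cells. Of 20 genes counted, 15 had a lower value in aged cells, 9 were lower and 1 was higher by 1.5-fold, and the median was -0.26, against 0.33 for the same list in vascular endothelium. The pool medians were -0.05 in A, -0.24 in B and 0.45 in C. With 1 UMI added to each count, genes with few or no UMIs in the 2 aged cells of pool C can score as higher. The direction of the pool C median is therefore not read. Ifi27l2a, an interferon-induced protein, had 65 UMIs or 542 CPM in aged cells and 266 UMIs or 1150 CPM in young cells (-1.09, -1.50 to -0.69). It was at 521, 646 and 325 CPM in aged pools A, B and C and at 1022, 800.3 and 1996 CPM in young ones, with no overlap. The aged value of pool C rested on 3 UMIs. The ubiquitin-like Isg15 had 167 CPM in aged and 285 CPM in young cells (-0.78, -1.58 to -0.04). For others of the list 1 young cell carried most UMIs: of 51 young UMIs of Ifit1, 82.4% were in 1 cell, and all 48 young UMIs of the antiviral gene Rsad2 were in 1 cell.

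Some immediate early genes, a group that responds within minutes to stimuli and also to tissue dissociation, were lower as well. Of 30 genes counted, 24 had a lower value in aged cells, 8 were lower and none higher by 1.5-fold, with a median of -0.17, against 0.63 for the list in vascular endothelium. By pool the median was -0.36 in A, 0.02 in B and -0.89 in C, and without the deepest cells it was -0.62. Dusp1, a phosphatase that shuts off MAP kinases, had 383 CPM in aged and 731 CPM in young cells (-0.93, -1.43 to -0.45). Fos had 2466 CPM in aged and 3204 CPM in young cells (-0.38, -0.58 to -0.18). Atf3, a stress-induced transcription factor, had 3 UMIs in aged cells, against 40 in young cells. The part of dissociation in these values was not tested.

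Of the genes named by the ranking rule, 12 were higher with age. Hspa5, the main chaperone of the endoplasmic reticulum, had 139 UMIs or 1158 CPM in aged and 166 UMIs or 718 CPM in young cells, a log2 ratio of 0.69 (0.35 to 1.02), with 0.19, 1.50 and -0.87 in pools A, B and C. Xbp1, a transcription factor of the unfolded protein response, had 275 CPM in aged and 112 CPM in young cells (1.29, 0.50 to 2.09). The Xbp1 ratio was 1.52, 0.06 and 4.04 in pools A, B and C, the last on 3 aged UMIs and 1 young UMI. Both genes had a ratio above 0 in vascular endothelium too, at 0.39 for Hspa5 and 0.87 for Xbp1. Aebp1, a secreted collagen-binding protein, was at 456, 529 and 542 CPM in aged pools and at 239, 214 and 277 CPM in young pools, which did not overlap (1.02, 0.47 to 1.58). Its aged value of pool C rested on 5 UMIs. Tmx4, a thioredoxin-related membrane protein, had the largest ratio of the 12, with 26 UMIs in aged and 11 UMIs in young cells (2.19, 1.12 to 3.35). Plat, the tissue plasminogen activator, was at 1.49 (0.70 to 2.30), with 54.3% of its aged UMIs in 1 cell. The others included Pcmtd1, Btbd3, Rab12, Prpf39, Hook3 and Dennd4a, with ratios between 1.05 for Btbd3 and 1.43 for Prpf39.

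The 12 genes named as lower included membrane proteins of endothelium. Tm4sf1, a tetraspanin-like protein of endothelial cells, had 49 UMIs or 408 CPM in aged cells and 198 UMIs or 856 CPM in young cells (-1.07, -1.55 to -0.61). It was at 430, 352 and 433 CPM in aged pools and at 946, 902 and 613 CPM in young pools, without overlap. The aged value of pool C rested on 4 UMIs. Myct1, an endothelial membrane protein, had 133 CPM in aged and 324 CPM in young cells (-1.28, -2.16 to -0.49), with pool ratios of -1.41, -1.26 and -1.45. The Myct1 ratio of pool C rested on 1 aged UMI. Gimap4, a GTPase best known from lymphocytes, had 4 UMIs in aged cells, against 33 in young cells (-2.10). With Col4a1, Ifi27l2a and Ifit1 described above, the remaining 6 were Dtd1, Aprt, Dpy30, Mob4, Etfa and Zfand5, with ratios between -2.33 for Dpy30 and -1.25 for Zfand5. All 24 named genes kept their direction and an interval beyond 0 without the deepest cell of each condition. Pools A and B had at least 10 lymphatic cells of both conditions, and the rule required the same direction in both.

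**Figure D4:**
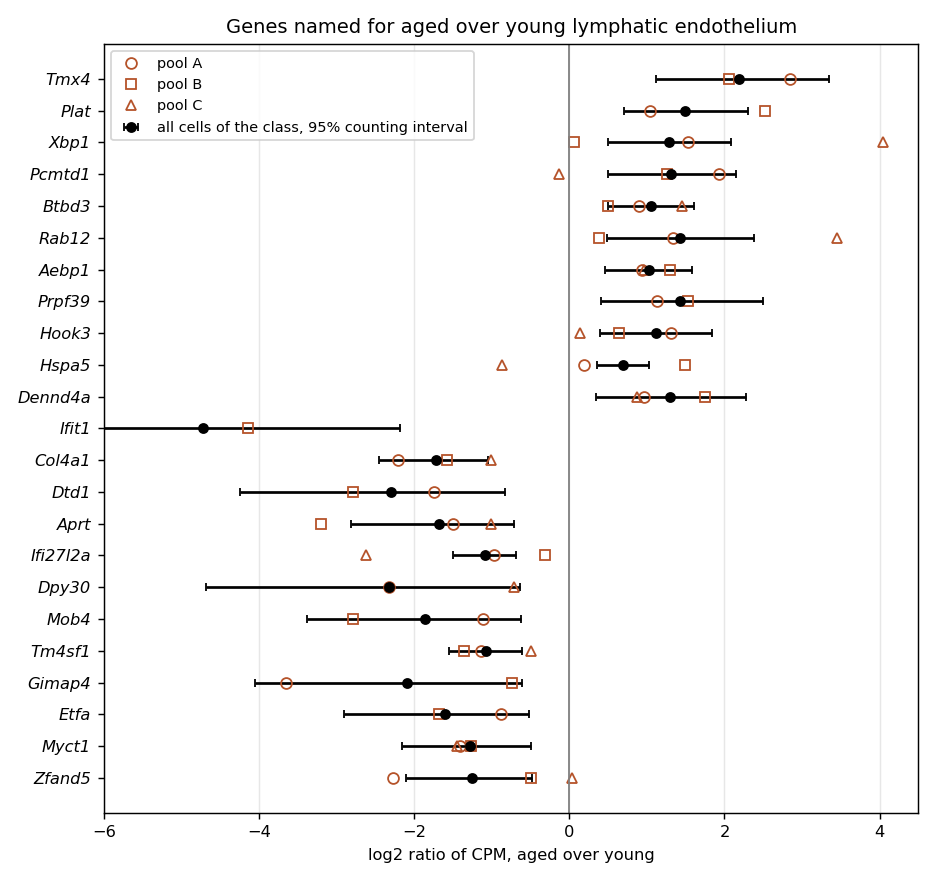
Log2 ratio of aged over young lymphatic cells for 23 of the 24 named genes, with filled points for all cells, lines for exact 95% intervals and open symbols for pools; the lower end for Ifit1 is cut off at -6 and a pool with 0 UMIs in a condition is not drawn. Col4a1 (-1.72) and Myct1 (-1.28) have all 3 pools below 0, with 1 aged UMI each in pool C, while Hspa5 (0.69) has pool C at -0.87.

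Metabolic and other lists differed little with age, and over all genes 12% were higher and 10.8% lower by 1.5-fold. Of 46 nuclear genes of oxidative phosphorylation none was higher and 2 were lower, with a median of -0.06. Of 12 mitochondrially encoded genes 11 had a higher value in aged cells, 1 was higher by 1.5-fold, and the median was 0.22, but mt-Atp6 and mt-Co3 had ratios of -0.07 and -0.13 when each cell was thinned to 1000 UMIs. Cell cycle genes were sparse, with 5 counted, of which 2 were lower and none higher. The authors called 2 of 29 aged and 5 of 55 young cells as G2M. Signals and lipids were mixed. Of 15 genes of the Notch, BMP and TGF-beta pathways 1 was higher and 2 lower, with a median of -0.08. The co-receptor Tgfbr3 was higher, with 21 UMIs in aged cells, against 18 in young cells (1.17, 0.19 to 2.16), and the BMP target Id1 was lower, with 19 UMIs in aged cells, against 72 in young cells (-0.98, -1.79 to -0.23). Of 9 lipid genes 2 were higher and 2 lower, and the lower ones were led by the fatty acid oxidation enzyme Acadl (-1.14, -2.18 to -0.21). Of 11 genes of complement and coagulation 1 was higher, Plat, and 3 were lower, with a median of -0.16. Of 9 genes of mechanosensing and flow 8 had a lower value, 1 was lower by 1.5-fold, and the median was -0.18. Lists of capillary (11 genes counted), valve and collecting vessel (11), pan-endothelial (24) and guidance genes (15) had medians of -0.12, -0.16, -0.00 and 0.19. Lists of acute inflammation (10), glycolysis (8), endothelial to mesenchymal transition (6), MHC class II (3), AMPK-linked genes (3) and hormone receptors (2) had medians of -0.13, -0.08, 0.22, 0.40, 0.29 and 0.39. Of 10 genes of senescence and p53, 3 were lower and none higher, among them the protease inhibitor Timp1 with 2 UMIs in aged cells, against 22 in young cells (-2.51, -5.65 to -0.49).

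For metformin against aged cells, 16 metformin cells limit every value, and no pool had 10 lymphatic cells of both conditions. Both comparisons share the aged cells, so a gene high in aged cells tends to appear in both with opposite signs. Over 1868 genes with at least 20 UMIs, 16.8% were 1.5-fold or more higher and 13.7% lower in metformin cells, and 54.0% had a higher and 46.0% a lower value of any size.

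Of 20 lymphatic identity genes counted, 16 had a lower value in metformin cells, 5 were lower and 1 was higher by 1.5-fold, and the median was -0.42, against 0.05 over all genes. Without the deepest cells the median was -0.12, and by pool it was -0.59 in A, 0.18 in B and -0.36 in C. Mmrn1 had 2073 CPM in metformin and 3208 CPM in aged cells, a log2 ratio of -0.63 (-0.90 to -0.36), or -0.32 without the deepest cells. Reln had 394 CPM in metformin and 817 CPM in aged cells (-1.05, -1.68 to -0.45), or -0.70 without them. Fgl2, a fibrinogen-like secreted protein, had 598 CPM in metformin and 1492 CPM in aged cells, with 1501 CPM in young cells. Fgl2 was at 454, 427 and 1089.7 CPM in metformin pools A, B and C and at 1499, 1409.8 and 1733 CPM in aged pools, which did not overlap. The metformin value of pool B rested on 6 UMIs. The Fgl2 ratio was -1.32 (-1.81 to -0.85), and -0.82 (-1.32 to -0.35) without the deepest cells. The other lower genes were the transcription factor Sox18 (-0.83) and Cp (-0.75), at -0.36 and -0.19 without the deepest cells, both with an interval that includes 0 there. Ptx3 was the gene that was higher, with 738 CPM in metformin and 408 CPM in aged cells (0.85, 0.28 to 1.43), or 0.86 without the deepest cells. It was at 606, 712 and 1089.7 CPM in metformin pools and at 430, 382 and 325 CPM in aged pools, again without overlap. These pool values rest on few cells, with 4 lymphatic cells each in metformin pools B and C and 2 in aged pool C.

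Other markers of the class had smaller ratios. Prox1 had 572 CPM in metformin and 775 CPM in aged cells (-0.44, -0.98 to 0.09), with a ratio of -0.51 (-1.14 to 0.08) without the deepest cells. Flt4 had 903 CPM in metformin and 974.9 CPM in aged cells (-0.11), and its ratio was 0.23 (-0.22 to 0.68) without them. Lyve1 had 1221 CPM in metformin and 1642 CPM in aged cells (-0.43, -0.79 to -0.07), with an interval that includes 0 without the deepest cells (-0.38, -0.78 to 0.02) and a ratio of 0.01 by the mean over cells. Ccl21a had 13865 CPM in metformin and 16507 CPM in aged cells (-0.25), and its direction turned without the deepest cells (0.09). Of 11 genes of the VEGF-C pathway 2 were higher and 1 lower, with a median of 0.00, and of 8 genes of leukocyte traffic none passed 1.5-fold.

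Of 42 nuclear genes of oxidative phosphorylation, 36 had a higher value in metformin cells, 9 were higher and none lower by 1.5-fold, and the median was 0.26, or 0.17 without the deepest cells. By pool it was 0.38 in A, 0.47 in B and -0.52 in C. In pool C, where aged cells had fewer UMIs than metformin cells, the 1 UMI added to each count lowers the ratios of sparse genes. Examples were the complex IV subunit Cox8a, with 89 UMIs in metformin and 71 UMIs in aged cells (0.94, 0.47 to 1.41), the complex III subunit Uqcrq (0.93, 0.33 to 1.54) and the ATP synthase subunit Atp5b (0.88, 0.27 to 1.50). Cox8a was at 0.65 (0.10 to 1.19) without the deepest cells, while there Uqcrq (0.41, -0.35 to 1.15) and Atp5b (0.46, -0.28 to 1.19) had intervals that include 0. A single cell held 50.9% of the metformin UMIs of Uqcrq and 46.2% of those of Atp5b. Of 11 mitochondrially encoded genes none had a higher value in metformin cells and 6 were lower, with a median of -0.64, or -0.33 without the deepest cells, and of -0.94, -0.11 and -0.28 in pools A, B and C. The median mitochondrial percent per cell was 1.93% in metformin, 2.53% in aged and 2.40% in young lymphatic cells. The list medians in vascular endothelium were 0.23 for the nuclear and -0.17 for the mitochondrial genes. The deepest metformin cell had a mitochondrial percent of 1.29%, and the part of depth in these values was not tested.

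Most of the genes named as higher in metformin cells rested on the deepest cell. That cell was called G2M by the authors and held 9 UMIs of the proliferation marker Mki67, while the 97 cells other than the deepest of each condition held 1. It carried 22 UMIs of Lyve1, 13 of Prox1 and 12 of Mmrn1, and 0 of Ptprc and Dcn. The intermediate filament gene Vim had 167 UMIs in metformin and 74 UMIs in aged cells (1.78, 1.38 to 2.20), and 78.4% of the metformin UMIs were in that cell. Without the deepest cell of each condition the Vim ratio was -0.03. The histone gene H2afz (1.35, and -0.07 without these cells) and the nuclear transport gene Ran (1.22, and -0.31 without them) turned in the same way. Nme1, Mrps24, Eif5a, Npm1, C1qbp, Pfn1, Snrpf and Hint1 were also named, with ratios between 0.96 for Hint1 and 2.06 for Nme1. Without the deepest cells 8 of the 12 kept their direction and 3 kept an interval beyond 0.

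Dusp1, Mrps24 and Eif5a were those 3. Dusp1 had 79 UMIs or 1005 CPM in metformin and 46 UMIs or 383 CPM in aged cells, with 731 CPM in young cells. Its ratio was 1.39 (0.85 to 1.95), and 1.88 (1.31 to 2.48) without the deepest cells. By pool, Dusp1 was at 433, 1282 and 2234 CPM in metformin cells and at 417, 323 and 325 CPM in aged cells, so the gap was narrow in pool A. One cell of pool C, which held 4 metformin lymphatic cells, had 38.0% of all metformin UMIs of Dusp1. Of 23 immediate early genes counted, 2 were higher and 8 lower by 1.5-fold, with a median of -0.32, which was 0.24 without the deepest cells. By pool that median was -1.22 in A, 0.28 in B and 0.93 in C. Without the deepest cells Atf3 (3.24, 1.39 to 5.68), Ier2 (1.28, 0.36 to 2.21), Fosb (0.92, 0.15 to 1.69) and Klf2 (0.44, 0.05 to 0.82) were higher too. Mrps24, a subunit of the mitochondrial ribosome, was at 1.75, and 1.28 (0.21 to 2.37) without the deepest cells, and the translation factor Eif5a at 1.33, and 0.87 (0.18 to 1.54) without them.

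The 12 genes named as lower held up better, since all 12 kept their direction and 9 an interval beyond 0 without the deepest cells. Beside Fgl2 and Reln they included the laminin chain Lama4, with 8 UMIs in metformin and 43 UMIs in aged cells (-1.82, -3.12 to -0.71, and -1.76 without the deepest cells). Of 11 basement membrane genes 2 were lower and 1, Col4a1, was higher, at 318 CPM in metformin and 175 CPM in aged cells (0.86, -0.03 to 1.77, and 0.60 without the deepest cells). Coagulation factor VIII (F8) had 318 CPM in metformin and 692 CPM in aged cells (-1.12, -1.83 to -0.46, and -0.74 without the deepest cells), but its ratio was 0.13 when cells were thinned to 1000 UMIs. The iron-siderophore carrier Lcn2 had 242 CPM in metformin and 558 CPM in aged cells (-1.21, -2.03 to -0.46), or -0.78 without the deepest cells. The Notch target Hes1 (-1.82), the TGF-beta-binding protein Ltbp4 (-1.13), Igfbp7 (-0.92, but 0.15 without pool A), Apold1 (-1.51) and Ankrd12 (-1.77) were lower too. Without the deepest cells Hes1 was at -1.69, Ltbp4 at -0.83, Igfbp7 at -0.30, Apold1 at -1.27 and Ankrd12 at -1.25, with intervals that include 0 for Igfbp7 and Ankrd12. Apold1 went the other way in pool C, at 1.59. A single cell held 41.0% of its aged UMIs, and another 55.6% of its 9 metformin UMIs. Plat and Tmx4, at -1.93 and -2.09, were both high in aged cells and are the 2 genes named in both comparisons. Their ratios were -1.49 and -1.38 without the deepest cells, with an interval that includes 0 for Tmx4.

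**Figure D5:**
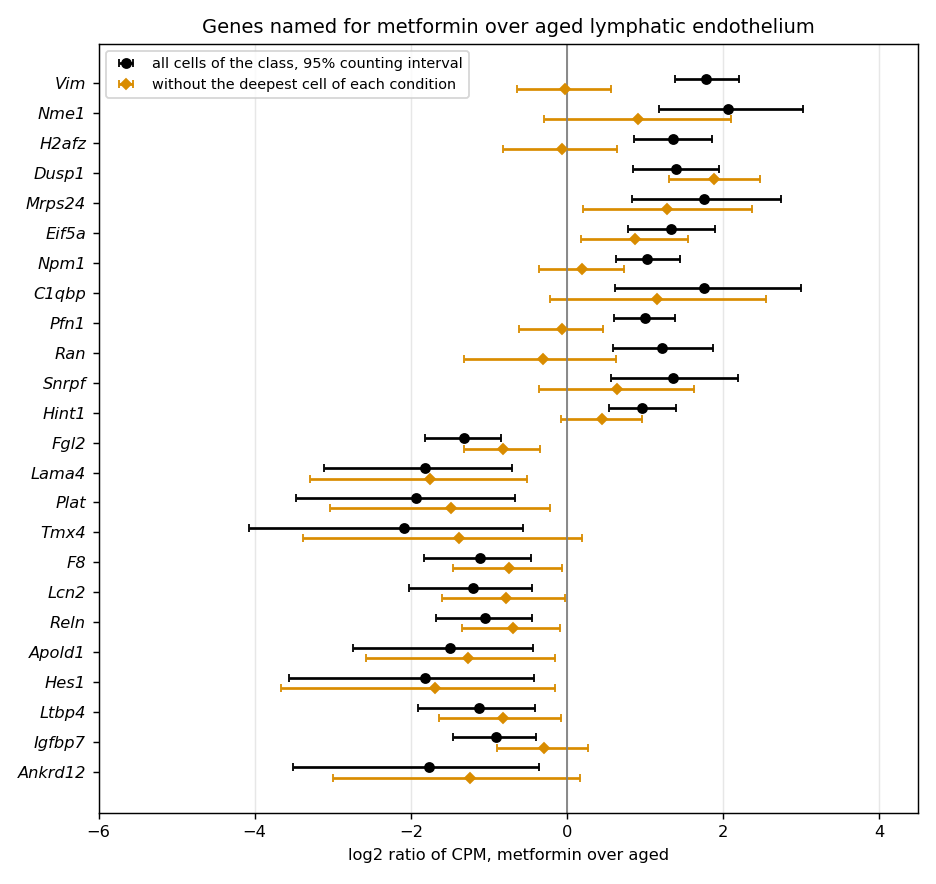
Log2 ratio of metformin over aged lymphatic cells for the 24 named genes, with exact 95% intervals, in black for all cells and in orange without the deepest cell of each condition. Vim moves to -0.03 in orange, while Dusp1 (1.88) and Lama4 (-1.76) keep their side.

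The remaining lists held few genes in this comparison. Of 8 interferon genes 7 had a lower value in metformin cells, 3 were lower and none higher by 1.5-fold, with a median of -0.51, or -0.35 without the deepest cells. The lower ones included Gbp7 (-1.59) and the immunity-related GTPase Iigp1, with 17 UMIs in metformin and 52 UMIs in aged cells (interval -1.89 to -0.19). Gbp7 was at -1.86 and Iigp1 at -0.82 (-1.79 to 0.05) without the deepest cells. Of 7 valve and collecting vessel genes 2 were higher, among them fibronectin (Fn1), whose ratio of 1.10 was -3.31 without the deepest cells. Of 11 Notch, BMP and TGF-beta genes none was higher and 4 were lower, with a median of -0.26, or -0.06 without the deepest cells. Lists of matrix (6 genes counted), complement and coagulation (7), glycolysis (7) and cell cycle genes (4) had medians of -0.74, -0.64, 0.51 and 0.87. Without the deepest cells these were 0.02, 0.12, 0.10 and -0.01, so none of the 4 kept its size.

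The summed levels of marker lists of other cell types differed between conditions. The surface epithelium list summed to 331 CPM in metformin, 242 CPM in aged and 411 CPM in young lymphatic cells, in 12 of 16, 15 of 29 and 42 of 55 cells. The blood endothelial list, in 16, 26 and 51 of those cells, summed to 1514 CPM in metformin, 1950 CPM in aged and 2041 CPM in young lymphatic cells, with 14 of 18 markers present, and all 9 UMIs of its gene Flt1 were in 1 young cell. The theca list summed to 127 CPM in metformin, 100.0 CPM in aged and 1185 CPM in young cells, with 238 of 274 young UMIs in 1 cell. At least 2 UMIs of Ptprc, Dcn, Inha and Rgs5 together were held by 1 metformin, 4 aged and 3 young cells. The part of these cells in the gene results was not tested beyond leaving them out, which turned 1 of the genes recomputed, Ccn1 in metformin over aged (0.12).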

How the data were processed

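Ovarian cells of 3 multiplexed 10x 3′ v3 pools were measured by single-cell RNA sequencing. The authors deposited whole-number UMI counts per gene and cell, and the submitters' processing notes name Cell Ranger 3.0.2 and the mouse builds GRCm38 and mm10. The deposited cell annotation gives pool, tag, condition, cell type and the percent of UMIs on mitochondrial genes. Each of the 3 tags went with 1 condition. The deposited doublet column marked 0 cells and no doublet caller was run, so doublets formed within 1 condition may remain.

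No cell was left out. UMIs were summed over the class per condition and scaled to CPM. Ratios have exact conditional binomial 95% intervals, shares Clopper-Pearson intervals, both for counting error only. Each condition was taken as 1 sample, since per the labels' protocols its ovaries were pooled and nothing says whether the pools hold different mice, and no test was run. A count of 1.5-fold changes, a list's median and a comparison by sign use genes with a sum of at least 20 UMIs in the compared conditions and 1 UMI added to each count. List medians by pool add 1 UMI in the same way. This moves ratios of sparse genes up where the first condition has fewer UMIs in the pool, and down where it has more. List medians are log2 values. How many of all genes had pools of 2 conditions without overlap was not counted, so such statements describe single genes. The 27 gene lists, the class and its members were chosen with earlier results of these data known.

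Named genes had a sum of at least 30 UMIs and UMIs in at least 5 cells of the higher one. They were ranked by the interval bound nearest 0, and 12 each way were taken with the same direction in each pool that held at least 10 lymphatic cells in each of the compared conditions. Genes of mitochondria, ribosomal proteins and haemoglobin, unnamed gene models and genes over 10 times higher in another class were left out. A few genes that these rules choose are not reported here. Other genes in the text belong to the lists or lead the class. Sub-clusters used 1000 variable genes, 15 principal components, 15 neighbours and Leiden resolution 0.5 (scanpy 1.11.5). Python 3.11.15, numpy 2.4.6, scipy 1.17.1 and pandas 2.3.3 were used, and the ratio and interval code was tested on simulated data. Alternatives were scaling by median of ratios, other minimums, thinning to 1000 UMIs, means over cells, leaving out pools, cells with markers of other classes, and, chosen after seeing the data, the deepest cells, the smallest sub-cluster and the top cell of each gene.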

Additional observations from a re-analysis of the deposited data

Results flagged for a closer look

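Some genes of the lists or ranking had an aged over young ratio on opposite sides of 0 in lymphatic and vascular endothelium. Both 95% intervals lay beyond 0, with the same directions in every pool that held at least 10 cells of both conditions in both classes. How many of all genes meet this rule was not counted, so these genes are a description. Tm4sf1, Gimap4, Ifit1 and Btbd3 came from the ranking, which had already asked for a lymphatic interval beyond 0. The difference between the classes was not tested, and the median over all genes of the vascular class was 0.16. Among genes of vessel signalling, Calcrl was at -0.88 in lymphatic and 0.46 in vascular endothelium, Tgfbr2 at -0.43 and 1.28, and the transcription factor Foxo1 at -1.14 and 0.67. Among membrane proteins, Tm4sf1 was at -1.07 in lymphatic and 0.61 in vascular cells, Gpm6a at -0.74 and 2.10, and Gimap4 at -2.10 and 0.83. Among immediate early and stress genes, Dusp1 was at -0.93 in lymphatic and 0.77 in vascular cells, Fos at -0.38 and 0.69, Klf2 at -0.27 and 0.68, and the small heat shock gene Hspb1 at -0.999 and 1.62. The interferon gene Ifit1 was at -4.73 in lymphatic and 0.93 in vascular cells, with 82.4% of its young lymphatic UMIs in 1 cell. Btbd3 was the gene with the opposite pattern, at 1.05 in lymphatic and -0.70 in vascular cells.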

How the results depend on the processing

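No paired analysis was possible because no test was run, each condition being taken as 1 sample. Each pool holds all conditions, and ratios within pools stand in the results. Counting error limits every value. The numbers of genes 1.5-fold higher and lower were 400 and 359 for aged over young and 314 and 256 for metformin over aged. With no minimum above 1 UMI they were 3412 and 2070, and 3555 and 2240, and with a minimum of 50 UMIs 63 and 74, and 78 and 57, since other genes are counted. Thinned to 1000 UMIs they were 74 and 81, and 46 and 32, with fewer UMIs counted. With 5 UMIs added, 98 were lower for aged over young and 130 for metformin over aged. This addition shifts most ratios upward, since the first condition of each comparison has fewer UMIs in total. The median log2 ratio over all genes was then 0.14 in both comparisons. By means over cells 551 were lower for aged over young, and for this and the rest the cause was not tested. Leaving out a pool gave 280 to 333 higher and 250 to 318 lower genes for aged over young. For metformin over aged it gave 77 to 316 higher and 74 to 276 lower, the lowest without pool A, which holds the deepest metformin cell. Fewer genes were counted there, 619 without pool A against 1868 with all pools. Of the 619 genes 12.4% were higher and 11.95% lower, against 16.8% and 13.7% with all pools. The odds ratio of lymphatic cells in endothelium for aged over young was 1.14 to 3.05, lowest without pool A. At resolution 1.0 there were 6 sub-clusters. Scaling by median of ratios turned no gene, but it only shifts all ratios of a comparison by the same amount. The median log2 ratio over all genes went from 0.01 to 0.06 for aged over young. For metformin over aged it went from 0.05 to 0.03. Keeping only cells with a defining marker left out none of the 100 cells, so that setting could change no value and says nothing about stability. For aged over young, Dcn turned to -0.54 without the deepest cells, -0.22 without the smallest sub-cluster and -0.41 without its top cell, mt-Co1 to -0.00095 by means over cells, and mt-Atp6 to -0.070 and mt-Co3 to -0.13 when thinned. Without a pool, mt-Atp6 ranged from -0.016 to 0.48. For metformin over aged, means over cells turned Fn1 (-0.51), Fos (0.11), Jun (0.13), Jund (0.10) and Lyve1 (0.012). Thinning turned Dcn (0.17), F8 (0.13), Fn1 (-0.83), Jun (0.50), Lyve1 (0.063), Npm1 (-0.37) and Stab1 (0.51). Without cells of other-class markers, Ccn1 was 0.12. Without the deepest cells, Ccl21a (0.086), Dcn (1.17), Fn1 (-3.31), Fos (0.23), H2afz (-0.071), Jun (0.18), Jund (0.41), Ogn (0.013), Pfn1 (-0.065), Ran (-0.31) and Vim (-0.026) turned. Without the top cell of the gene, Dcn (0.65), Fn1 (-3.19), H2afz (-0.0074), Pfn1 (-0.0074) and Ran (-0.23) turned. Without a pool, Ccn1 ranged from -1.82 to 0.10, Dcn from -4.17 to 2.15, Fos from -1.90 to 0.78, Igfbp7 from -1.16 to 0.15, Jun from -1.54 to 0.42, Jund from -1.27 to 1.52, Nme1 from -0.17 to 2.39, Npm1 from -0.44 to 1.36, Ran from -0.70 to 1.61 and Vim from -0.48 to 2.17, each turned without pool A.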
